A study of Mus musculus with 6 samples.

Results

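The integrin and laminin chain genes are the genes whose symbol in the deposited count table is *Itga*, *Itgb*, *Lama*, *Lamb* or *Lamc* followed by a chain number or letter. The rule found 37 of the 55341 genes of the table, namely 26 integrin genes and 11 laminin genes. They were described in 3 miRNA-26b-/- and 3 miRNA-26b+/+ mice, with 1 RNA-sequencing library per mouse, all at 8 weeks of age on chow diet and of the strain given in the labels as C57BL/6NCrl. The miRNA-26b-/- libraries are named M2626, M2627 and M2628, and those of the miRNA-26b+/+ mice M2629 to M2631. Per the methods, the miRNA-26b locus in an intron of *Ctdsp1* was flanked by loxP sites in embryonic stem cells that were not of the C57BL/6 strain. It was deleted by a tamoxifen-induced CreERT2 whose gene was then bred out of the miRNA-26b-/- mice. No promoter restricted the deletion to a cell type, as far as the methods say.

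Integrins are cell surface receptors made of 1 alpha and 1 beta chain that hold cells to the extracellular matrix and to other cells. The beta1 chain pairs with most alpha chains of vessel wall cells, the beta2 and beta7 chains mark leukocytes, and the alphaIIb chain with beta3 forms the fibrinogen receptor of platelets. Laminins are cross-shaped proteins of 1 alpha, 1 beta and 1 gamma chain that form the basement membrane around smooth muscle cells and beneath the endothelium, where integrins with an alpha3, alpha6 or alpha7 chain bind them. miRNA-26b is a short RNA that lowers transcripts whose 3′ UTR matches its seed, which here means bases 2 to 8.

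Aortic endothelial cells are named in the labels, but the methods describe tissue of the arch and thoracic part of the aorta. The markers were those of a whole vessel wall. In the 6 libraries the summed level of 8 smooth muscle markers (*Acta2*, *Myh11* and others) was 32583 to 43607 CPM (counts scaled to a common library size), against 541 to 1824 CPM for 10 endothelial markers (*Pecam1*, *Cdh5* and others). In such bulk tissue fewer cells of a type and less RNA per cell cannot be told apart. Cell type markers also differed between libraries. M2626 and M2627 held 541 and 558 CPM of the summed endothelial markers, below every other library. The sum was led by *Pecam1* and *Vwf*, at 716 and 604 of 1824 CPM in M2628. *Pecam1*, *Cdh5*, *Tek*, *Tie1*, *Emcn* and *Vwf* were each lowest in M2626 and M2627, but *Kdr*, *Egfl7*, *Cldn5* and *Erg* were not. *Kdr* was lowest in M2628 (8.83 CPM), and *Erg* in M2626 (75.4 CPM) exceeded M2629 and M2630 (62.2 and 67.2 CPM). The 3 miRNA-26b-/- libraries held 166 to 303 CPM of 13 Schwann cell markers against 36.7 to 118 CPM in miRNA-26b+/+. The targeted *Mir26b* gave reads in 1 library alone (20 counts in M2630), so these libraries, made from longer RNA, do not check the genotypes. The libraries held 25706728 to 33345037 counts.

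The seed of miRNA-26b is shown with its matches in the integrin genes, because a miRNA acts through such matches. The mature miRNA-26b-5p (RefSeq, GRCm38.p6, chr1:74394324-74394344, forward strand) and miRNA-26a-5p, which has the same seed and was not deleted, are given with the seed in capitals.

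miRNA-26b-5p: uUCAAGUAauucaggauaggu

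miRNA-26a-5p: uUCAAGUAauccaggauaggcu

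Counted from the 5′ end, miRNA-26a-5p differs from miRNA-26b-5p by U11C and U21C and is 22 against 21 bases long, with both differences outside the seed. In the longest annotated 3′ UTR of each gene (GENCODE release M21, GRCm38), 4 of the 33 integrin and laminin genes tested had an 8mer site, a match to the whole seed followed by A. They are shown 5′ to 3′ on the strand of the transcript with the 8mer in capitals. The site of *Itga1* lies at chr13:114956477-114956484 (reverse strand), that of *Itga3* at chr11:95044776-95044783 (reverse), that of *Itga5* at chr15:103345137-103345144 (reverse) and that of *Itgb8* at chr12:119160833-119160840 (reverse).

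Itga1: cataaagaTACTTGAAaaaaactt

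Itga3: gggtgtgaTACTTGAAtgtagcat

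Itga5: cagagacaTACTTGAAgggccaga

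Itgb8: ttatatttTACTTGAAtaattgtt

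The share with an 8mer was 12.12% of these 33 genes, against 5.088% of all 13541 tested genes with an annotated 3′ UTR. An 8mer or a 7mer site, which pairs with bases 2 to 8 of the miRNA, or with bases 2 to 7 followed by A, was found in 10 of the 33 genes (30.3%), against 22.15% of all. *Itga2*, *Itga8*, *Itgav*, *Itgal* and *Itgb3* were among the 6 genes with 7mer sites alone. The site of *Itga8*, at chr2:12191186-12191192, is in the UTR of a transcript that ends well inside the gene, which extends from 12106632 to 12301922.

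**Figure D1:**
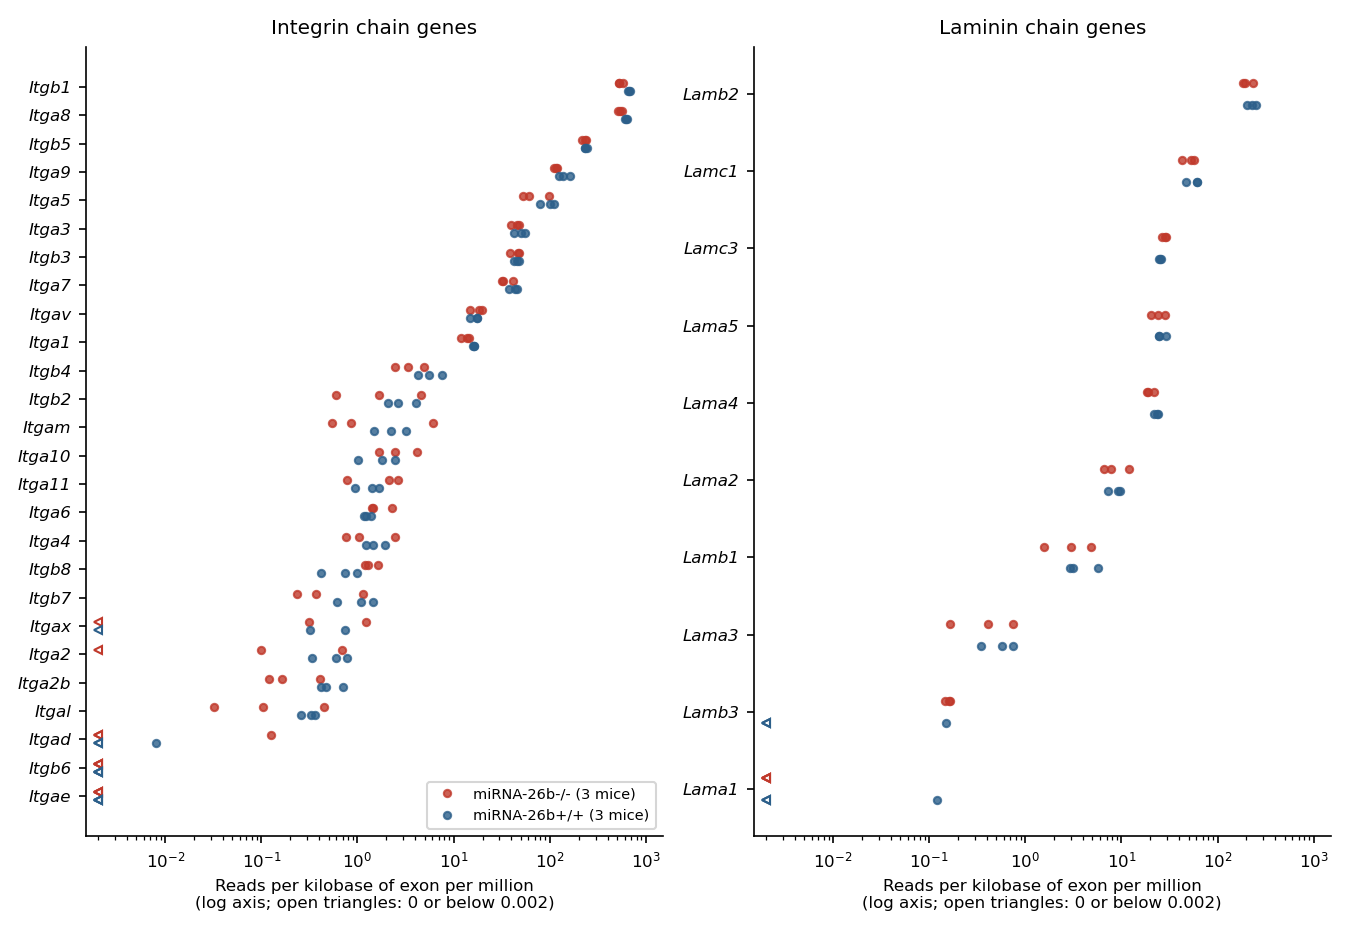
Level of the 26 integrin genes (left) and of 10 laminin genes (right) in each library, as RPKM (CPM divided by exon length in kilobases) on a log axis. Each point is 1 mouse, red for miRNA-26b-/- and blue for miRNA-26b+/+, and open triangles at the left edge are values of 0 or below 0.002. *Itgb1* and *Itga8* lie above all other integrins, and *Lamb2* lies above all other laminin chains.

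Levels of different genes were compared per kilobase of exon, as RPKM (CPM divided by exon length in kilobases), averaged over the 6 libraries. *Itgb1*, the beta1 chain, at 607 RPKM and *Itga8*, the alpha8 chain found in smooth muscle, at 582 RPKM were the integrin genes with the highest level in this wall. The ratio of *Itga8* to *Itgb1* was 0.929, 1.09 and 0.973 in M2626, M2627 and M2628 and 0.960, 0.896 and 0.930 in M2629, M2630 and M2631, so the groups overlapped and neither gene was above the other throughout. *Itgb5*, a beta chain that pairs with alphav on vitronectin, followed at 233 RPKM. *Itga9*, a chain that binds tenascin and other ligands, was at 128 RPKM, and *Itga5*, the fibronectin receptor chain, at 83.7 RPKM. Next were the laminin receptor chain *Itga3* (47.1 RPKM), *Itgb3* (44.9), the muscle laminin receptor chain *Itga7* (38.7), *Itgav* (17.1) and the collagen receptor chain *Itga1* (14.8). Among the alpha chains *Itga8* made up 63.2% of the summed RPKM, with 60.7 to 66% over the libraries. Among the beta chains *Itgb1* made up 67.8% and *Itgb5* 26.2%. The exons of *Itga8* share 372 bases with the antisense gene *E030013I19Rik* (16655 to 26162 counts), and since strand was not used in counting, reads over that stretch cannot be told apart.

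The other 16 integrin genes were all under 5 RPKM. They included *Itgb4* (4.70 RPKM), which pairs with alpha6 on laminin, and the leukocyte chains *Itgb2* (2.59) and *Itgam* (2.41). The order of such neighbours was not fixed, since *Itgam* ranged from 2.74 to 30.9 CPM within the miRNA-26b-/- group alone. *Itgae* and *Itgb6* were at 0 counts in all 6 libraries. *Itgad* had 19 counts in M2627, 1 count in M2630 and 0 in the other libraries.

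Among the laminin genes *Lamb2* was the highest at 216 RPKM and made up 98.4% of the summed RPKM of the beta chains. *Lamc1*, the gamma1 chain of most laminins, was at 53.4 RPKM and made up 65.8% of the gamma chains, with *Lamc3* at 26.7 RPKM and 33.3%. *Lamb2* exceeded *Lamc1* in every library, with a ratio per kilobase of 3.53 to 4.49. The alpha chains, which carry the integrin binding site, were lower than *Lamb2* and *Lamc1*: *Lama5* 25.2, *Lama4* 21.5 and *Lama2* 8.74 RPKM. The beta chain *Lamb1* was at 3.53 RPKM. The ratio of *Lama5* to *Lama4*, the main chains beneath the endothelium, was 0.942 in M2627 and 1.02 to 1.53 in the other libraries, so their order was not the same in all mice. *Lama5*, *Lama4* and *Lama2* made up 45.0%, 38.5% and 15.5% of the alpha chains. The chains of epithelial laminin were low, with *Lama3* at 0.496 and *Lamb3* at 0.104 RPKM. *Lama1* had 35 counts in M2631 and 0 in the other 5 libraries. Reads per exon length do not measure the amount of protein chain.

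The promoters of the leading pair are shown because these genes were the highest of their classes. They run from 250 bases before to 50 bases after the start (RefSeq, GRCm38.p6), at chr8:128685404-128685703 on the forward strand for *Itgb1* and chr2:12301895-12302194 on the reverse strand for *Itga8*, with GC boxes in capitals.

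Itgb1: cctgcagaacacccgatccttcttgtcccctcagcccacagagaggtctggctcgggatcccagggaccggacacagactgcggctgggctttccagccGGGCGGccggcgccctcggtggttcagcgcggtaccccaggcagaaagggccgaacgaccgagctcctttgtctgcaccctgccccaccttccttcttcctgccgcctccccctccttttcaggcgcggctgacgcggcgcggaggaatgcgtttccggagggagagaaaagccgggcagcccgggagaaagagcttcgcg

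Itga8: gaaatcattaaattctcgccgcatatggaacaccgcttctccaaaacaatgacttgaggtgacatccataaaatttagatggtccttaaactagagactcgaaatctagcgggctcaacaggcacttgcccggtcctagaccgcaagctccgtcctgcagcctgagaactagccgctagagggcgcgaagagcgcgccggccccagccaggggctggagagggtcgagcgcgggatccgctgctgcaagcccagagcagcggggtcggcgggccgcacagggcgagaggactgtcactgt

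Both strands were searched for 4 motifs. The GC box was searched as GGGCGG. The TATA box was searched as TATAAA. The CCAAT box was searched as its 5 letters. The CArG box, the binding motif of serum response factor in smooth muscle genes, was the remaining one. The window of *Itgb1* held 1 GC box and that of *Itga8* held 0 matches to any of the 4 motifs. For 23 integrin and laminin genes a promoter was listed, with 26 promoters among them. Of these 26 promoters, 12 held a GC box, against 35.66% of all 32851 promoters. A CArG box was found in 2 of the 26, of *Lama2* and *Itgb6*, against 1.629% of all promoters. A TATA box was found in 0, against 13.62%, and CCAAT in 4, against 37.41%.

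The comparison of miRNA-26b-/- with miRNA-26b+/+ mice asks which chains changed with the loss of the miRNA. Of the 37 genes, 33 passed the filter on low counts and were tested, 23 integrins and 10 laminins, and the 4 left out were *Itgad*, *Itgae*, *Itgb6* and *Lama1*. No integrin or laminin gene passed the adjusted test. The smallest adjusted p by edgeR (quasi-likelihood, Benjamini-Hochberg) was 0.736 among integrins and 0.800 among laminins, and 0.00624% of all genes tested, which is 1 gene, passed. At an unadjusted p under 0.05, 5 of 23 integrins passed, which is 21.7%, against a background of 6.47% of all 16017 genes tested. Of these 5, *Itgb8* was higher (background 3.4%), and *Itga5*, *Itga9*, *Itgb1* and *Itgb4* were lower (background 3.07%) in miRNA-26b-/- mice. None of the 10 laminins passed. DESeq2 and limma voom, fitted to the same counts, also gave 0 laminins and each gave 7 integrins, against 5.28% and 5.29% of all genes tested. The median log2 fold change, miRNA-26b-/- over miRNA-26b+/+, was -0.20 over the integrins with 16 below 0, -0.15 over the laminins with 7 below 0, and 0.01 over all genes tested. The smallest p that an exact permutation test of 3 against 3 libraries can give is 0.1, and nothing in the labels says how the animals were matched. The edgeR p-values set the group difference against the spread between these 6 libraries, which edgeR estimates in part over all genes tested.

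The counts depended on single libraries. Without M2630 no integrin passed, and without M2627 or M2631 1 passed, *Itga2* and *Itgb1* in turn. *Itga2* was not among the 5 that passed with all 6 libraries. Without M2626 3 passed, and without M2628 or M2629 6 and 5 passed. Of all genes tested, 4.97%, 5.76% and 4.36% passed without M2630, M2627 and M2631. Without M2626, M2628 and M2629 these shares were 5.76%, 10.8% and 5.34%. The groups did not overlap, with miRNA-26b-/- above, for *Itga6*, *Itgb8* and *Lamc3* (background 5.65%), and with miRNA-26b-/- below for *Itga1*, *Itga2b*, *Itga8*, *Itga9*, *Itgb1* and *Lama4* (background 5.88%).

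**Figure D2:**
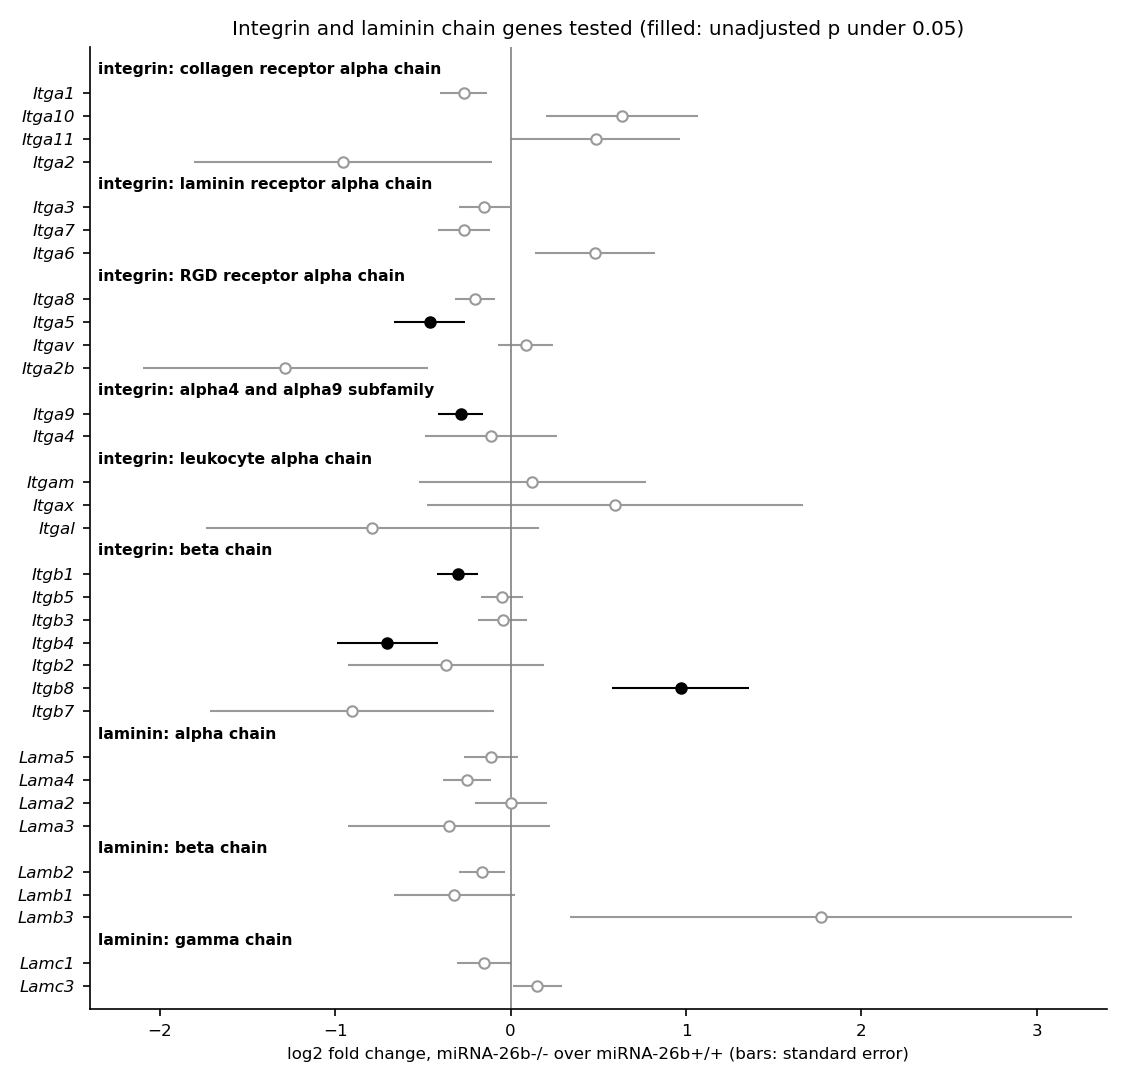
Log2 fold change, miRNA-26b-/- over miRNA-26b+/+, of 32 integrin and laminin genes tested, grouped by role of the chain, with bars of 1 standard error from edgeR. Filled points have an unadjusted p under 0.05: *Itgb8* lies above 0 and *Itga5*, *Itga9*, *Itgb1* and *Itgb4* lie below it.

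*Itgb1*, the common partner of many alpha chains, had the smallest p of the integrins. Its level was 2365, 2136 and 2158 CPM in M2626, M2627 and M2628 and 2655, 2739 and 2818 CPM in M2629, M2630 and M2631. All miRNA-26b-/- libraries were below all miRNA-26b+/+ libraries. The log2 fold change was -0.30 (standard error, SE, 0.114, adjusted p = 0.736 by edgeR). Without M2627 or M2630 it was -0.28 and -0.30, and the gene no longer passed the unadjusted test.

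*Itga5*, the alpha chain of the fibronectin receptor, was at 297, 263 and 482 CPM in the miRNA-26b-/- libraries and 394, 492 and 549 CPM in the miRNA-26b+/+ libraries. M2626 and M2627 were below all others and M2628 lay within the miRNA-26b+/+ range. The log2 fold change was -0.46 (SE 0.201, adjusted p = 0.744 by edgeR). The gene no longer passed the unadjusted test without M2626, M2627, M2630 or M2631, with log2 fold changes of -0.37, -0.29, -0.44 and -0.36, nor with all 6 libraries under the earlier quasi-likelihood method of edgeR. Without M2628 the log2 fold change was -0.77 and the adjusted p was 0.0367 by edgeR, among 82 genes that passed the adjusted test in that fit. Over all alternatives its adjusted p ranged from 0.0367 to 1. Without M2626 and M2627, the libraries with the lowest summed endothelial markers, the log2 fold change was 0.01. That fit holds M2628 alone on the miRNA-26b-/- side and leaves out the 2 lowest libraries for *Itga5*, so it restates that M2628 lay within the miRNA-26b+/+ range. The part of the endothelium in the result was not tested.

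*Itga9*, which shares an ancestral line with *Itga4*, was at 860, 912 and 899 CPM against 952, 1063 and 1238 CPM, with no overlap. Its log2 fold change was -0.28 (SE 0.130, adjusted p = 0.756 by edgeR). Without M2626, M2627, M2628, M2630 or M2631 it no longer passed the unadjusted test, with log2 fold changes of -0.26, -0.30, -0.29, -0.29 and -0.19. *Itga4*, the lymphocyte homing chain of the same subfamily, was at 10.7 to 33.9 CPM with a log2 fold change of -0.11.

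*Itgb4*, the beta chain of the alpha6beta4 laminin receptor of epithelium and Schwann cells, was at 17.0, 23.6 and 34.6 CPM in the miRNA-26b-/- libraries and 30.1, 39.1 and 53.7 CPM in the miRNA-26b+/+ libraries. The groups overlapped through M2628 and M2629. The log2 fold change was -0.70 (SE 0.289, adjusted p = 0.736 by edgeR). It was -0.51, -0.65, -0.73 and -0.46 without M2626, M2627, M2630 and M2631, and the gene passed the unadjusted test in none of these fits. *Itgb4* overlaps the antisense gene *B230344G16Rik* by 537 bases. Like *Itga5*, it was lowest in M2626 and M2627. The log2 fold change of M2628 alone against the miRNA-26b+/+ libraries was -0.25. The part of the endothelium was not tested.

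*Itgb8*, which pairs with alphav to activate TGF-beta, was the integrin that was higher. It was at 14.2, 18.3 and 13.3 CPM in the miRNA-26b-/- libraries and 10.8, 8.16 and 4.57 CPM in the miRNA-26b+/+ libraries, with no overlap. The log2 fold change was 0.97 (SE 0.389, adjusted p = 0.736 by edgeR). Without M2627, M2630 or M2631 it was 0.80, 1.0 and 0.68, and the gene no longer passed the unadjusted test. Its 3′ UTR holds the 8mer printed above.

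The other chains that bind the sequence RGD were *Itga8*, *Itgav* and *Itga2b*. *Itga8* was at 3964, 4206 and 3789 CPM against 4599, 4433 and 4730 CPM, with no overlap and a log2 fold change of -0.20 (SE 0.112, adjusted p = 0.800 by edgeR). It passed the unadjusted test with DESeq2, limma voom and the earlier quasi-likelihood method of edgeR, though not with the test used here. *Itgav*, the alpha chain shared by the vitronectin receptors, was at 160 to 212 CPM against 159 to 188 CPM, and *Itgb5* at 768 to 857 CPM against 818 to 878 CPM, both overlapping. *Itga2b*, the platelet chain, was at 2.23, 0.656 and 0.886 CPM against 2.28, 2.55 and 3.87 CPM, with a log2 fold change of -1.28 (SE 0.812, adjusted p = 0.837 by edgeR).

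None of the laminin receptor chains passed the unadjusted test. *Itga7* was at 333, 266 and 256 CPM against 305, 370 and 350 CPM (log2 fold change -0.26), and *Itga3* at 228 to 273 CPM against 245 to 316 CPM (log2 fold change -0.15). *Itga6*, which pairs with beta1 and beta4, was at 13.1, 20.7 and 12.7 CPM against 10.5, 12.4 and 11.1 CPM, above throughout, with a log2 fold change of 0.48 (SE 0.344, adjusted p = 0.858 by edgeR).

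Among the collagen receptor chains *Itga1*, the form of smooth muscle, was at 257, 269 and 224 CPM against 306, 295 and 302 CPM. The groups did not overlap, and the log2 fold change was -0.27 (SE 0.135, adjusted p = 0.769 by edgeR). *Itga10*, known from cartilage and counted below with the fibroblast chains, had a log2 fold change of 0.63 and *Itga11*, a chain of fibroblasts, 0.48, both with overlapping groups. *Itga2*, the form of platelets and epithelium, was at 0.703, 4.92 and 0 CPM against 4.24, 5.61 and 2.42 CPM, with a log2 fold change of -0.96 (adjusted p = 0.905 by edgeR). Without M2627 it was -3.58 and passed the unadjusted test. *Itga10* shares 1739 bases of exon with *Gm42957*, which had 206 to 560 counts.

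The leukocyte chains varied between the mice of 1 group. *Itgam* was at 2.74, 4.26 and 30.9 CPM in miRNA-26b-/- mice and at 7.51 to 15.9 CPM in miRNA-26b+/+ mice, and it shares 3450 bases of exon with *Gm49368*. *Itgb2*, the beta chain of the leukocyte alpha chains, was at 1.84, 5.07 and 13.8 CPM against 8.09, 6.34 and 12.3 CPM. *Itgax*, *Itgal* and *Itgb7* were under 6 CPM in every library. M2628, with the highest *Itgam* and *Itgb2*, also had the highest sum of 9 myeloid markers, 859 CPM against 299 and 366 CPM in M2626 and M2627 and 506 to 581 CPM in the miRNA-26b+/+ libraries. *Itgb3*, the beta chain of platelets and endothelium, was at 228 to 281 CPM against 253 to 284 CPM.

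The laminin alpha chains differed little between the groups. *Lama4*, of the endothelial basement membrane, was at 226, 261 and 223 CPM against 266, 293 and 284 CPM, with no overlap and a log2 fold change of -0.25 (SE 0.137, adjusted p = 0.800 by edgeR). *Lama5* was at 274, 232 and 321 CPM against 279, 282 and 332 CPM. *Lama2*, the chain of muscle and Schwann cells, was at 107, 128 and 194 CPM against 119, 157 and 152 CPM, with a log2 fold change of 0.0048 (SE 0.205). *Lama3* was under 8 CPM in every library.

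Among the beta chains *Lamb2* was at 1162, 1130 and 1419 CPM against 1238, 1398 and 1518 CPM, with overlap and a log2 fold change of -0.16 (SE 0.134). *Lamb1*, its counterpart in other tissues, was at 15.4 to 47.4 CPM against 29.2 to 57.2 CPM. *Lamb3* was at about 1 CPM in the 3 miRNA-26b-/- libraries and at 0, 0.984 and 0 CPM in the miRNA-26b+/+ libraries, with a log2 fold change of 1.77 (SE 1.43, adjusted p = 0.886 by edgeR). It was over 1 CPM in M2627 and M2628 alone, so it was tested only through the miRNA-26b-/- group. It was not tested without either library. It passed the unadjusted test without M2630, where every miRNA-26b+/+ library left is at 0. Of the gamma chains, *Lamc1* was at 352, 435 and 467 CPM against 386, 509 and 502 CPM, with overlap and a log2 fold change of -0.15 (SE 0.153). *Lamc3* was at 161, 178 and 174 CPM against 154, 157 and 152 CPM, above throughout by a log2 fold change of 0.15 (SE 0.141).

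Summed over the genes, the integrins were at 9739, 9624 and 9511 CPM against 10831, 11159 and 11711 CPM with no overlap. Most of this sum came from *Itga8* and *Itgb1* (3964 and 2365 CPM in M2626), both without overlap themselves, so it says little of the other integrins. The laminins were at 2303, 2406 and 2864 CPM against 2487, 2863 and 2985 CPM, with overlap.

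The chains were then set beside the cell types known to carry them, with a gene counted under more than 1 type where it marks several. For the counts here and in the next paragraph, the background is 6.47% of all genes tested, 3.4% higher and 3.07% lower. The 6 chains of smooth muscle (*Itga1*, *Itga5*, *Itga7*, *Itga8*, *Itga9* and *Lamb2*) had log2 fold changes below 0 with a median of -0.27, and 2 passed the unadjusted test. The 8 smooth muscle markers had a median of -0.04, 0 passed, and their sum was 41000, 36577 and 32583 CPM against 35529, 36733 and 43607 CPM, with overlap. Of the 4 chains of endothelium (*Itga6*, *Itgb3*, *Lama4* and *Lama5*) 3 were below 0 with a median of -0.08, and none passed. The 10 endothelial markers had a median of -0.43 with 9 below 0, and 1 passed in the lower direction. None of the endothelial markers was at 0 in any library.

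Of the 4 chains of Schwann cells (*Itga6*, *Itgb4*, *Itgb8* and *Lama2*) 3 were above 0, and *Itgb8* passed higher and *Itgb4* lower. Of 12 Schwann cell markers tested, 7 passed higher and 1 lower, with a median of 1.57, and the sums of the groups did not overlap. *Itgb8* was higher in the same 3 libraries that had the higher Schwann cell sum, but *Itgb4* was not, and *Itgb8* in M2631 was lowest where the Schwann cell sum was the highest of its group. The part of the nerve in these results was not tested. The 3 platelet chains and the 4 tested lymphocyte chains were all below 0, while the 4 platelet markers tested had a median of 0.40. Of the 3 tested myeloid chains (*Itgam*, *Itgax* and *Itgb2*) 2 were above 0 with a median of 0.12, and the 9 myeloid markers had a median of -0.25. The 2 fibroblast chains (*Itga10* and *Itga11*) were above 0, and the 8 fibroblast markers had a median of 0.00016. The epithelial chains were 5 of 6 below 0, and of 9 epithelial markers 2 passed higher and 1 lower. Of these, *Cdh1* was tested only through the miRNA-26b-/- group, where it is high, and *Lrrn4*, the lower one, only through miRNA-26b+/+. The levels of 2 chains were set beside markers of their assigned types. *Itgb3* was at 44.9 RPKM, against 0.381 for its platelet partner *Itga2b* and 15.7 for *Pf4*, the highest platelet marker. It was below *Pecam1*, the highest marker of endothelium, its other assigned type, at 74.6 RPKM. *Itga3* was at 47.1 RPKM, against 6.01 for *Krt18*, the highest epithelial marker. Which cells carried *Itgb3* and *Itga3* in this wall was not tested. Of 9 skeletal muscle markers 7 passed higher, the sum being 42.9, 102 and 8.51 CPM against 3.74 to 13.9 CPM, so that M2628 lay within the miRNA-26b+/+ range. Among these, *Myh1*, *Myh4*, *Tnnt3*, *Mylpf* and *Tnnc2* were over 1 CPM in no miRNA-26b+/+ library. They were tested only through the miRNA-26b-/- group, so the filter itself favoured a rise. Of 9 sympathetic neuron markers 4 passed higher, but their sum was high in M2627 alone, at 98.0, 429 and 67.3 CPM against 101 to 158 CPM. None of the 5 tested cardiac, 6 adipocyte and 8 fibroblast markers passed, and 1 of 4 tested lymphocyte markers passed higher. That marker, *Cd79b*, was also over 1 CPM in miRNA-26b-/- libraries alone.

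**Figure D3:**
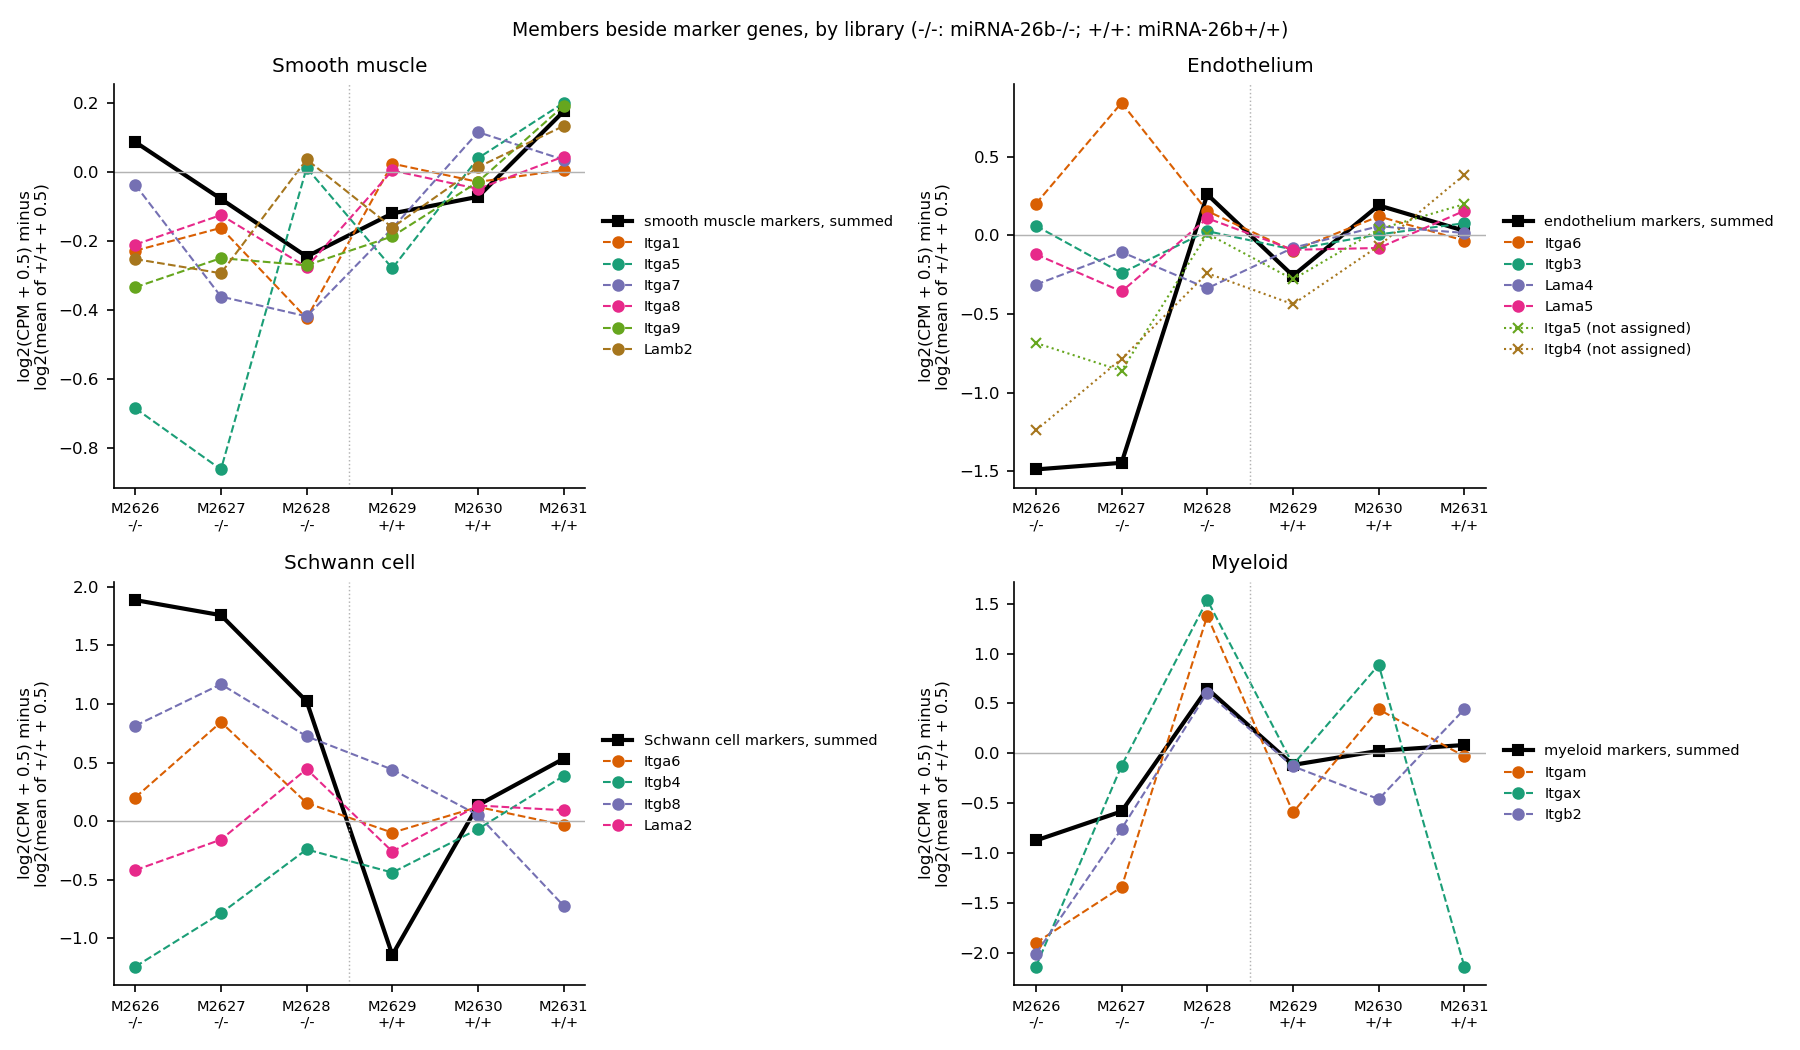
Integrin and laminin chains assigned to 4 cell types, beside the summed markers of that type, in each library. The axis is log2(CPM + 0.5) minus the same for the miRNA-26b+/+ mean, black squares are the markers and coloured points the chains. *Itga5* and *Itgb4*, drawn as crosses in the endothelium panel, were not assigned to endothelium and were added after their values were seen. Like the summed endothelial markers, they are lowest in M2626 and M2627.

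The fold changes were also set beside the miRNA-26b sites, with no test of the difference. The 4 chains with an 8mer had log2 fold changes of -0.46 (*Itga5*), -0.27 (*Itga1*), -0.15 (*Itga3*) and 0.97 (*Itgb8*), with a median of -0.21. Of these 4, 2 passed the unadjusted test in opposite directions, *Itga5* lower and *Itgb8* higher. The background for this and the next counts is 6.47% of all genes tested. The 6 with 7mer sites alone ranged from -0.96 to 0.09 with a median of -0.18 and 0 passed. The 23 without a site ranged from -1.28 to 1.77 with a median of -0.15, and 3 passed. Over all genes tested the medians were -0.0037 for 689 genes with an 8mer, 0.0019 for 2310 with a 7mer alone and 0.021 for 10542 without a site. A match of letters does not show that the miRNA binds.

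**Figure D4:**
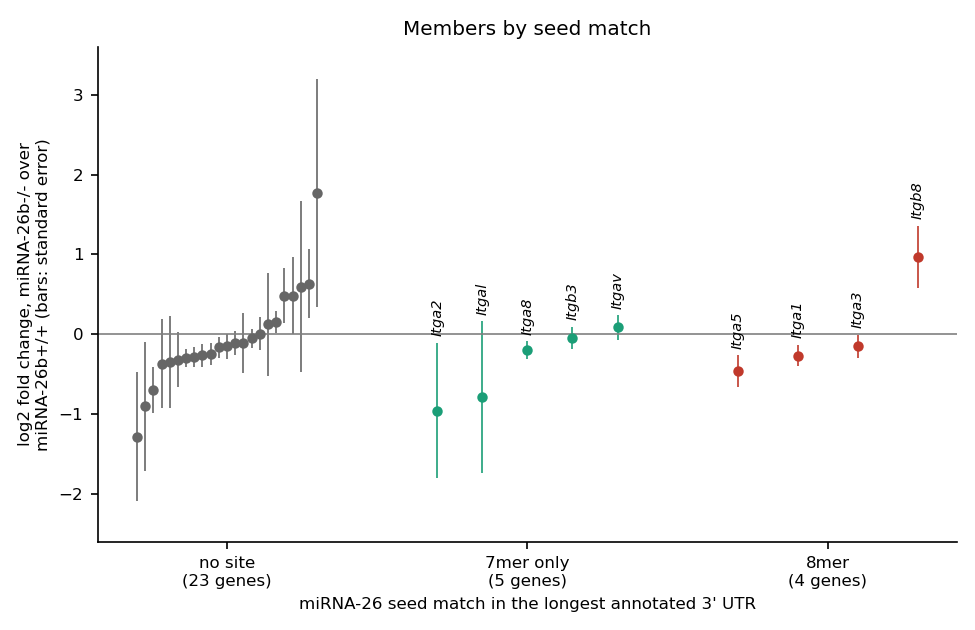
Log2 fold change, miRNA-26b-/- over miRNA-26b+/+, of 32 integrin and laminin genes tested by the best miRNA-26 seed match in the longest annotated 3′ UTR, with bars of 1 standard error. Of the 4 genes with an 8mer, *Itgb8* lies above 0 and the other 3 lie below it.

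Genes that act with these chains were counted from 3 lists. Of 36 tested genes of the adhesion machinery inside the cell, 3 passed the unadjusted test (8.33%, against 6.47% of all genes tested, so near the background), with a median log2 fold change of -0.05. *Flnc*, an actin crosslinker, was at 269, 270 and 339 CPM against 359, 359 and 447 CPM (log2 fold change -0.41). *Actn1*, which links integrins to actin, was at 1492, 1480 and 1482 CPM against 1686, 1804 and 2029 CPM (-0.31), and *Itgb1bp1*, an inhibitor of beta1 integrin activation, was at 40.7, 53.1 and 48.7 CPM against 36.9, 34.2 and 31.8 CPM (0.48). In all 3 genes, which were picked by their p in the same libraries, the groups were apart. Of the 36 genes tested, 1 had miRNA-26b-/- above without overlap (background 5.65%) and 5 had it below (background 5.88%).

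Of 17 basement membrane partners of laminin, 3 passed (17.6%, against 6.47% of all genes tested), with a median of -0.07. *Col4a1*, a chain of collagen IV, was at 1766, 1714 and 1919 CPM against 1950, 2388 and 2496 CPM (log2 fold change -0.34). *Dag1*, the precursor of the dystroglycan receptor for laminin, was at 523, 568 and 521 CPM against 591, 649 and 720 CPM (-0.28), and *Sparc*, a collagen-binding matricellular protein, was at 4817, 4717 and 5991 CPM against 3821, 3590 and 4242 CPM (0.41).

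Of 17 tested other integrin ligands, 3 passed (17.6%, with the same background), with a median of -0.03. *Fn1*, the ligand of the alpha5 chain, was at 4630, 4271 and 5626 CPM against 5347, 6615 and 6675 CPM (log2 fold change -0.36), with overlap through M2628. *Vcam1*, the ligand of the alpha4 and alpha9 chains, was at 29.7, 35.0 and 96.8 CPM against 113, 134 and 93.6 CPM (-1.08), and like *Itga5* was lowest in M2626 and M2627. *Cdh1*, the ligand of the alphaE chain, had 30, 37 and 32 counts against 0, 1 and 0 counts, at least 11-fold higher taken against a floor of 3 counts per library. It was over 1 CPM in the miRNA-26b-/- libraries alone, at 1.17, 1.10 and 1.13 CPM. It was thus tested only through the group where it is high, though it counts among the 3 ligands that passed. None of the partner genes passed the adjusted test. By leaving out 1 library at a time the counts ranged from 0 to 4, 1 to 5 and 2 to 9 in the 3 lists, and the count of the adhesion list was 0 without M2627 or M2631 and 1 without M2630. The count of the laminin partners was 1 without M2627, M2630 or M2631 and 5 without M2628, and that of the other ligands was 9 without M2628. In the fit without M2628, 10.8% of all genes tested passed.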

How the data were processed

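RNA of the aorta of 3 miRNA-26b-/- and 3 miRNA-26b+/+ mice was sequenced, 1 library per mouse, with a kit that does not keep strand. Alignment was to mm10 with STAR, and the authors deposited raw read counts per gene, made with featureCounts 1.6.4 over exons of GENCODE release M21 per the file headers, without strand, a read over several genes being counted for each. Their methods name another release. A second deposited table with their own comparison was not used. Groups were taken from the genotype labels, and the libraries held 25706728 to 33345037 counts.

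A gene was tested if its counts summed to 2 or more and 2 or more libraries were over 1 CPM. The 16017 genes left were fitted by edgeR 4.0.16 (R 4.3.3, quasi-likelihood, TMM, prior count 0.125), with Benjamini-Hochberg adjustment over them. CPM uses TMM-scaled library sizes, and RPKM divides it by the exon length in the count table. Floors cover counting error only. The values of 1 gene are not reported here, though it is included in the counts, sums and medians. The genes, the lists of markers and partners and the cell types were chosen with earlier results of these data known. Named genes are those with an unadjusted p under 0.05, the 6 integrins and 4 laminins highest per kilobase and the 3 largest rises and falls; the others are given by range, and some were named for overlap after their values were seen. Of the 20 genes listed as other ligands, *Cyr61* and *Ctgf* were not matched. Alternatives were library size alone, DESeq2 1.42.0, limma voom (3.58.1), the earlier quasi-likelihood method, filterByExpr, no filter, a prior count of 2 and leaving out each library; 2 fits leaving out a pair of libraries were added after seeing the data. On simulated counts with a log2 change of 2 set in 199 of 15073 genes, 97.5% passed at an unadjusted p under 0.05 and 168 after adjustment; of the unchanged genes, 6.03% passed at an unadjusted p under 0.05 and 16 genes after adjustment.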

Additional observations from a re-analysis of the deposited data

How the results depend on the processing

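With 3 mice a group, no integrin or laminin gene passed the adjusted test under library size alone, DESeq2, limma voom, the earlier quasi-likelihood method, filterByExpr, no filter or a prior count of 2; leaving out 1 library gave 0 to 1, the 1 being *Itga5* without M2628. With 1 library left out, the integrins with an unadjusted p under 0.05 ranged from 0 to 1 higher and 0 to 5 lower, and the laminins from 0 to 1 higher and 0 to 1 lower. In those fits the partner lists ranged from 0 to 4 (adhesion machinery), 1 to 5 (basement membrane) and 2 to 9 (other ligands). The share of all genes tested that passed ranged from 4.36% without M2631 to 10.8% without M2628. With all libraries, DESeq2 and limma voom each gave 6 lower integrins. limma voom gave 6 adhesion genes and 7 other ligands, and the earlier quasi-likelihood method 5 adhesion genes. Of all genes tested, 5.28% passed with DESeq2, 5.29% with limma voom and 5.01% with the earlier quasi-likelihood method. The median log2 fold change ranged from -0.28 to -0.15 over the integrins and -0.27 to -0.02 over the laminins.

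2 fits were chosen after seeing the data. Without M2627 and M2630, the libraries with the most cardiac muscle markers, integrins were 0 higher and 1 lower, and the partner lists gave 0, 0 and 1. In that fit 4% of all genes tested passed. *Itgb5* turned to 0.024. Without M2626 and M2627, the libraries with the lowest summed endothelial markers, M2628 alone stood for miRNA-26b-/- and was assumed to vary like the miRNA-26b+/+ group. The medians were -0.046 for integrins and 0.17 for laminins. *Itga5* turned to 0.0080, *Lamb2* to 0.032, *Lamc1* to 0.0022, *Lama5* to 0.11, *Itga10* to -0.049 and *Itgb7* to 0.10. The cause was not tested. Of the values of named genes under these alternatives, 210 kept their side, 27 fell short of the threshold, 7 passed it and the 7 above reversed. No paired analysis was possible because the labels give no replicate numbers.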
